A study of Mus musculus with 4 samples.

Results

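The genes described here copy the chromosomes and divide them. They are 59 genes of DNA replication and mitosis, chosen by name: every non-control probe whose gene name in the deposited scanner files was one of the 59 counted as a member. All 59 were on the array, with 80 of the 55681 non-control probes and 59 of 34821 gene names, and 15 of them had several probes. They were arranged by role into 24 genes of S phase (origin licensing, origin firing and fork, nucleotide supply), 14 E2F factors and G1 cyclins and kinases, and 21 mitotic genes.

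Before S phase, the MCM2-7 helicase is loaded onto origins by Cdc6 and Cdt1, a step called licensing that geminin (Gmnn) blocks once replication has begun. D-type cyclins with Cdk4 and Cdk6 inactivate the RB protein, which frees activating E2F factors to switch on the replication genes. Cyclin B with Cdk1 drives mitosis, the spindle checkpoint holds chromosomes until they are attached, and the anaphase-promoting complex then releases them. Adult islet cells divide rarely, whereas mesenchymal stromal cells divide readily when they are grown attached in serum.

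The arrays held RNA from 2 samples of islet-like clusters and 2 samples of islets of Langerhans, all from male Swiss albino mice aged 10 to 12 weeks, with pancreata of 2 to 4 mice pooled for a digest. The clusters were made from fibroblast-like cells that had attached to the flask after collagenase digestion, grew in 10% serum and were passaged every 3 to 4 days at 80 to 90% confluency. The labels call them MSC-like. They were then held for 10 days in low-adherence dishes in serum-free medium with albumin, insulin, transferrin and selenium, with 0.3 mM taurine from day 3 and 100 mM nicotinamide, 3 mM taurine and GLP-1 from day 7. The islets were flushed from flasks of the same kind of digest and purified. Their titles give 48 h in culture and their descriptions call them freshly isolated, which the labels do not settle. No attached, undifferentiated cells were on the arrays, so the comparison sets clusters against islets and does not follow a change during induction. The labels do not tell whether replicates were separate pools of mice, so a p-value here reflects the spread of these arrays, part or all of which may be technical. In such bulk samples, fewer cells of a type and less RNA per cell cannot be told apart.

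Levels are log2 of the processed signal relative to the 75th percentile of the array, so 0 marks that percentile, and differences are clusters minus islets on the log2 scale. A member was tested when one of its probes stood well above background in both samples of either group. That held for 50 of the 59 members, of which 44 were well above background on all 4 arrays. Between 59.7% and 63.6% of spots were well above background on the 4 arrays, and Pearson's r over the genes tested was 0.985 between the cluster arrays and 0.989 between the islet arrays (genes are not independent replicates). The median difference of all 24595 genes tested was -0.10. It shifted by 0.20 when arrays were scaled to their medians and by -0.19 when the percentile was taken from detected probes alone, and the members' differences are relative to these centres. Acinar, endothelial and mesenchymal markers separated the groups completely, as described at the end.

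Most of the S phase members tested were lower in clusters than in islets, while several members that act upstream of them were higher. In the limma fit, 25 of the 50 members tested (50.0%) were lower in clusters at an adjusted p below 0.05, against 28.2% of all genes tested. Another 8 (16.0%) were higher, against 26.6% of all genes, and 17 did not pass; 54.9% of all genes passed in one direction or the other. The median difference of the members was -0.84, against -0.10 over all genes. Differences of at least 2-fold were found for 23 lower members (20.0% of all genes) and 5 higher ones (20.3% of all genes). Both cluster arrays lay below both islet arrays for 31 members (42.7% of all genes) and above them for 9 (37.2% of all genes), and the groups overlapped for 10. Among the 44 members well above background on every array, 21 were lower and 8 higher, where the shares over all such genes were 24.9% and 25.3%.

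Among 22 S phase members with a test, 15 lay lower, 2 higher and 5 missed the threshold, with a median of -1.31. Of the 15 mitotic members with a test, 8 lay lower, none higher and 7 on neither side of the threshold, with a median of -0.88. The 5 E2F factors had 3 higher members and no lower one (median 0.75), and the 8 G1 cyclins and kinases tested had 3 higher and 2 lower (median 0.56). Over all genes tested, 26.6% were higher and 28.2% lower.

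**Figure D1:**
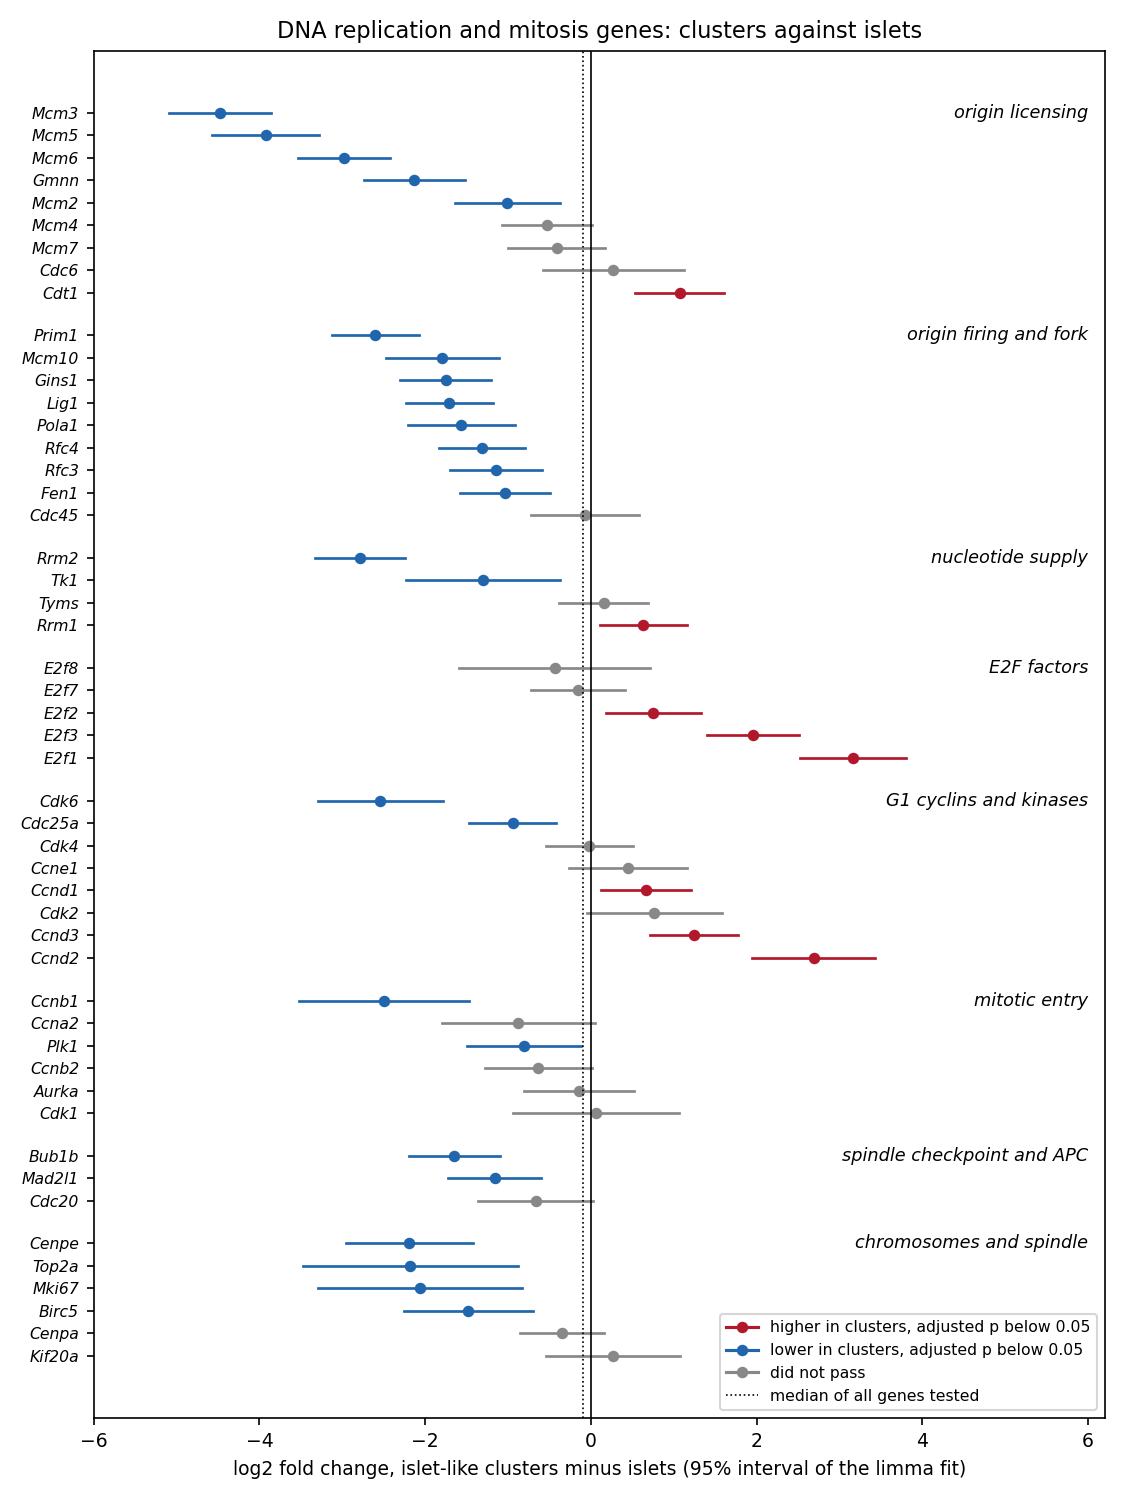
Difference between clusters and islets (x axis, log2, clusters minus islets) for each of the 50 members tested, by role (y axis). Points are limma estimates from 2 arrays per group and bars their 95% intervals; blue members were lower and red members higher in clusters at an adjusted p below 0.05. The dotted line is the median of all genes tested, -0.10. Mcm3 lies farthest to the left at -4.48 and E2f1 farthest to the right at 3.16.

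The promoters of these genes carry 2 kinds of short element that are known to time their transcription: E2F sites, which serve genes of the G1/S transition, and the cell cycle homology region (CHR), often found with CCAAT boxes, which serves genes of G2 and mitosis. RefSeq promoter windows, from 250 bases before to 50 bases after the start on GRCm38.p6, were at hand for 48 of the 59 members. An E2F word (TTTCCCGC or TTTGGCGC, either strand) stood in the windows of 8 of 20 S phase members (40%) and 5 of 11 E2F and G1 members (45.5%), in none of 17 mitotic members, and in 1.80% of the 27025 genes of the table. The CHR word (TTTGAA, either strand) stood in 11 of 17 mitotic members (64.7%) and 3 of 20 S phase members (15%), against 20.2% of all genes. The CCAAT word, on either strand, was found in 14 of 17 mitotic members (82.4%), 13 of 20 S phase members (65.0%) and 41.1% of all genes. Words were searched separately, so matches of different words may share bases at their ends, and no S phase or mitotic member had both an E2F and a CHR word. These are matches of letters and not measured binding sites.

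**Figure D2:**
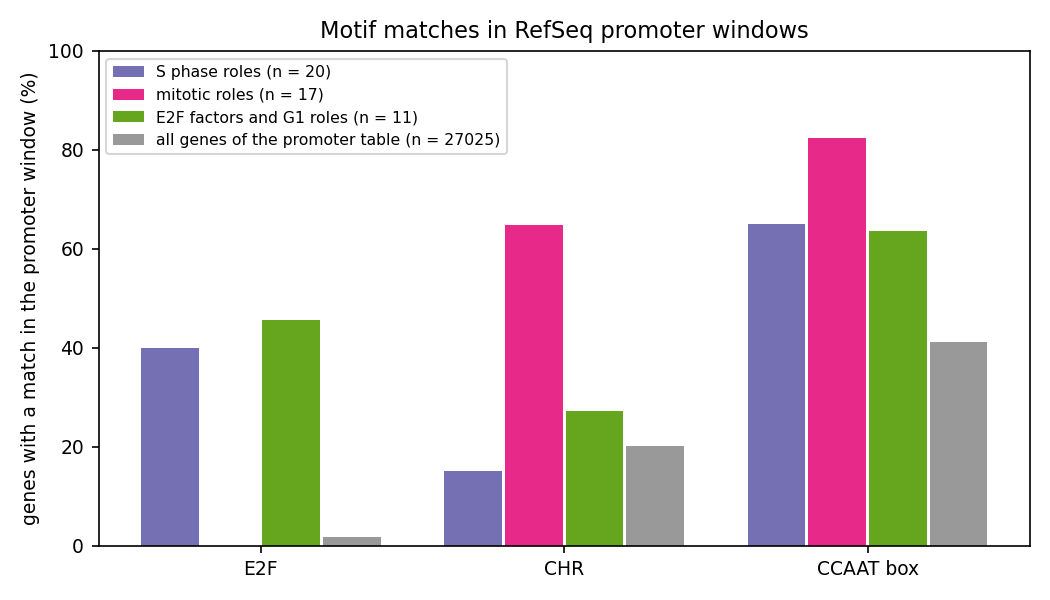
Share of genes (y axis, %) whose RefSeq promoter window holds an E2F, CHR or CCAAT word (x axis), for S phase members, mitotic members, E2F and G1 members, and all genes of the table. The E2F bars stand at 40% for S phase members and at 0 for mitotic members, and the CHR bars at 15% and 64.7%.

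The E2F word occurred on both sides of the result. It stood in the windows of 6 of 23 lower members, 3 of 6 higher members and 4 of 14 members that did not pass. All 4 licensing genes that both passed and held the word are shown here in the sense of the gene with 10 bases on either side and the word nearest the start in capitals (Mcm3 and Mcm6 have 2), since 3 of them were lower and Cdt1 was higher. They lie at chr1:20820276-20820303 (minus strand), chr8:75109350-75109377 (plus), chr1:128359735-128359762 (minus) and chr8:122568037-122568064 (plus).
Mcm3: aacttccgtgGCGGGAAAacttgggaag
Mcm5: aagaactttcGCGCCAAAacgtccagcc
Mcm6: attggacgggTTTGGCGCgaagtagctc
Cdt1: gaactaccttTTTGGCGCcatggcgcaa
The word reads as its reverse complement in Mcm3 and Mcm5. Counted from the start, with bases before it negative, it begins at 20 in Mcm3, at 33 in Cdt1, at -149 in Mcm5 and at -47 in Mcm6.

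The CHR word likewise stood in mitotic members with and without a difference. It is shown for Plk1, Top2a and Mki67, which were lower but lost their calls in several alternatives, and for Cdk1, which did not pass. Bub1b, lower in every alternative that tested it, also held the word, too near the window's end to show 10 bases on either side. The stretches have 10 bases on either side and the word nearest the start in capitals. Top2a, Mki67 and Cdk1 hold a second word. The stretches lie at chr7:122159455-122159480 (plus strand), chr11:99024197-99024222, chr7:135716462-135716487 and chr10:69352912-69352937 (minus strand).
Plk1: cagcgccgcgTTTGAAttcggggagg
Top2a: tagataaaggTTCAAAtgaaactagg
Mki67: gccgttttggTTTGAAtcgggcgggc
Cdk1: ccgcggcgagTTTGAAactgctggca
In Top2a the word reads as its reverse complement. By call, the word stood in 6 of 23 lower members, 2 of 6 higher ones and 7 of 14 that did not pass.

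For a wider view, the 250 bases before the start are given for the S phase member with the largest difference in each direction, Mcm3 and Cdt1, and for the mitotic member with the largest, Ccnb1. They are chr1:20820313-20820562 (minus strand), chr8:122567765-122568014 (plus) and chr13:100786487-100786736 (minus) on GRCm38.p6, written in the sense of the gene with E2F, CHR and CCAAT words of either strand in capitals.
Mcm3: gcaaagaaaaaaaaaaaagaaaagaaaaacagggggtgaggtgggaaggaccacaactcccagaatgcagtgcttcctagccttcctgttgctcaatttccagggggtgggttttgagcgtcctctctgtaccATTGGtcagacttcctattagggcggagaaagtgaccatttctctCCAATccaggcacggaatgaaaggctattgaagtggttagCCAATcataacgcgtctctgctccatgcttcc
Cdt1: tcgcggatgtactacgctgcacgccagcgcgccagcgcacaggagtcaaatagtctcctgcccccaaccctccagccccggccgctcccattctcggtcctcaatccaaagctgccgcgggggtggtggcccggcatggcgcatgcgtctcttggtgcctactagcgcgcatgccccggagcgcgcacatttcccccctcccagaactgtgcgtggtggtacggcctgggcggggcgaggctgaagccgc
Ccnb1: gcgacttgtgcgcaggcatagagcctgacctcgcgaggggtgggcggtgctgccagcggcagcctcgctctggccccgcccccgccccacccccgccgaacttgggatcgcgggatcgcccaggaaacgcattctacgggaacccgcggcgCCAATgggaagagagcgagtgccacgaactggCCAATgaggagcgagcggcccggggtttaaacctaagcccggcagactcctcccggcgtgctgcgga
The Mcm3 stretch held 3 CCAAT words, 1 of them on the opposite strand, the Ccnb1 stretch held 2, and the Cdt1 stretch held none. No E2F or CHR word stood in any of the 3 stretches.

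Origin licensing held the 2 largest differences of all members tested, in Mcm3 and Mcm5. Of its 9 genes, 5 were lower in clusters, Cdt1 was higher and 3 did not pass, with a median of -1.01. The helicase subunits moved unequally. Mcm3 lay at -1.71 and -1.55 on the cluster arrays and at 3.16 and 2.54 on the islet arrays. It was 22.3-fold lower in clusters (-4.48 ± 0.27 SE, limma adjusted p = 8.35e-07; probe at chr1:20793119-20793178 on mm9). The gap between the groups was far wider than the gap within either. A second Mcm3 probe gave -3.82 (limma adjusted p = 7.09e-06, over probes).

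Mcm5 lay at -3.29 and -3.28 in clusters and at 1.01 and 0.27 in islets, a 15.2-fold difference (-3.93 ± 0.29 SE, adjusted p = 2.84e-06 by limma; probe at chr8:77651350-77651410 on mm9). Mcm6, like Mcm3 and Mcm5, was well above background on both cluster arrays, at 1.82 and 1.61, against 4.87 and 4.51 in islets (7.87-fold lower, limma adjusted p = 7e-06). Mcm2 lay at -0.48 and -0.72 in clusters and at 0.74 and 0.07 in islets (2.01-fold lower, limma adjusted p = 0.0133). The remaining subunits did not pass: Mcm4 differed by -0.53 (95% interval -1.08 to 0.01, limma adjusted p = 0.0871) and Mcm7 by -0.41 (-1.0 to 0.17, adjusted p = 0.206). Mcm4 was called lower in 6 of 17 alternatives (-0.73 to -0.53), among them the authors' values (-0.58, adjusted p = 0.0432), quantile normalization (0.0362) and non-uniform spots kept (0.0463). The intervals of Mcm3, Mcm5 and Mcm6 (-3.53 to -2.42 for the last) did not reach those of Mcm2, Mcm4 and Mcm7, although each interval comes from its own probe and the difference between subunits was not tested.

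The loader and its inhibitor went opposite ways. Cdt1, which brings the helicase to origins, lay at 3.77 and 3.44 in clusters and at 2.60 and 2.47 in islets. It was 2.10-fold higher (1.07 ± 0.24 SE, limma adjusted p = 0.00439), with no overlap between groups. Gmnn, which binds and blocks Cdt1, lay at -1.99 and -1.43 in clusters and at 0.57 and 0.27 in islets, a 4.38-fold difference towards islets (-2.13 ± 0.27 SE, limma adjusted p = 0.000132). The other loader, Cdc6, was dim on all arrays (-3.41 and -4.01, -3.42 and -4.54) and did not pass (0.27, 95% interval -0.58 to 1.12). Cdt1 lost its call without islet replicate 1 (adjusted p = 0.0974) or islet replicate 2 (0.160). Mcm2 lost it with median scaling (0.0807), with no filter on dim probes (0.0563), and in 3 fits with an array left out: cluster replicate 1 (-1.13, 0.0766), cluster replicate 2 (-0.89, 0.130) and islet replicate 1 (-0.67, 0.373). Further, normexp background correction left Mcm3 at -3.85 and Mcm5 at -2.62.

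**Figure D3:**
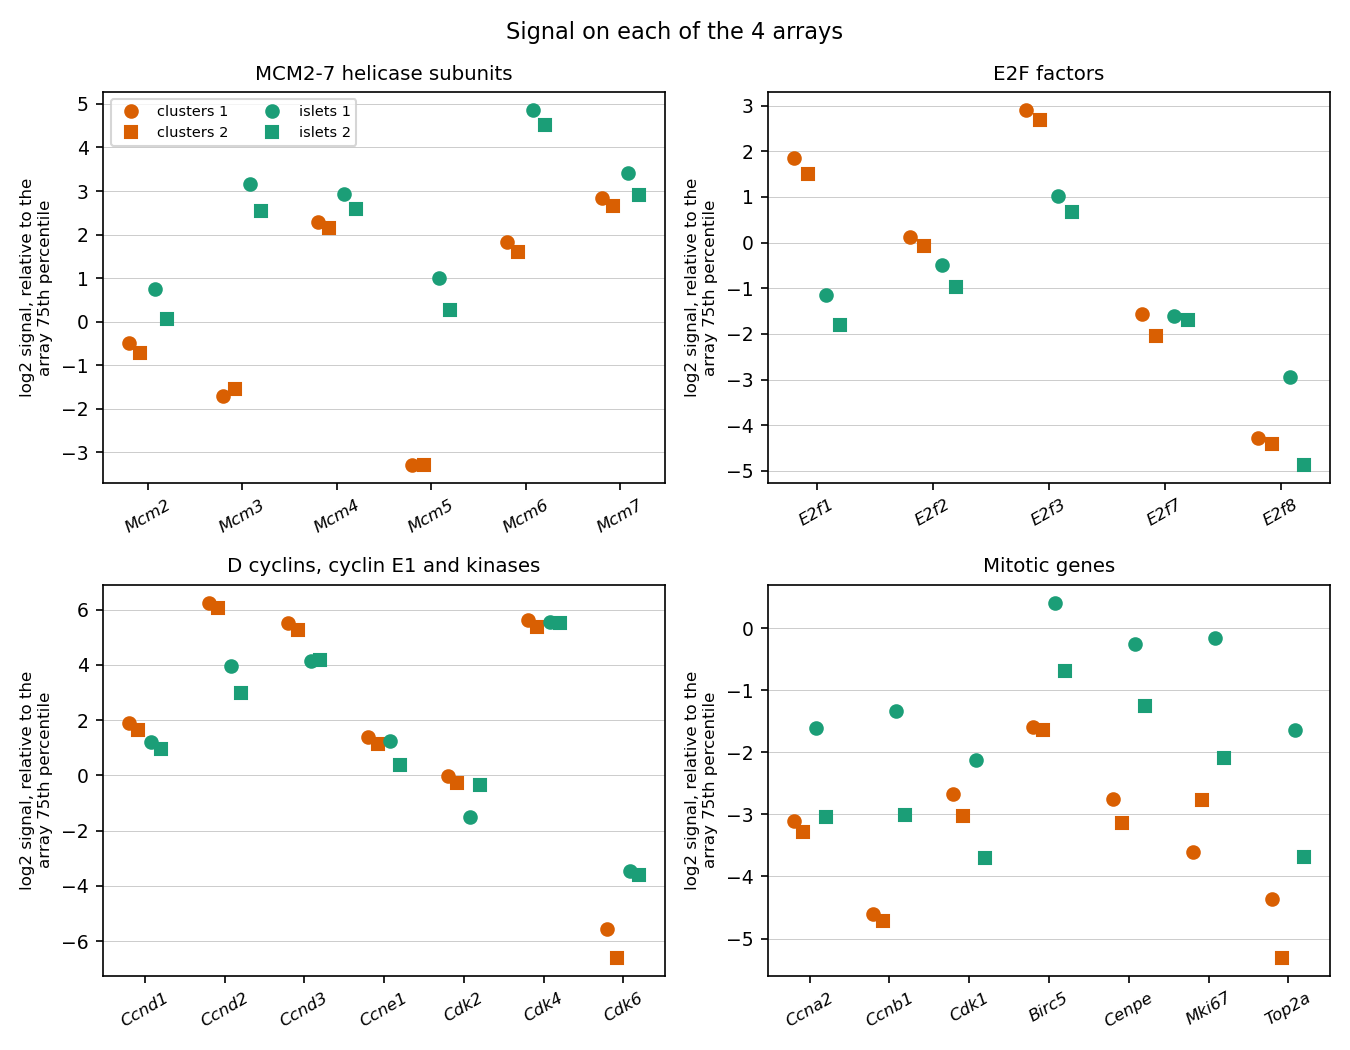
Level on each array (y axis, log2 signal relative to the array's 75th percentile) for helicase subunits, E2F factors, G1 genes and mitotic genes (x axis). Orange marks are clusters and green marks islets, circles replicate 1 and squares replicate 2; levels of different genes come from different probes and are not comparable. Mcm3, Mcm5 and Mcm6 sit far lower in clusters, E2f1, E2f3 and Ccnd2 far higher, and in the mitotic panel islet replicate 1 lies above islet replicate 2 for all 7 genes.

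Genes of origin firing and the replication fork were almost uniformly lower. Of the 9 tested of 11, 8 were lower, none was higher and Cdc45 did not pass, with a median of -1.56. Prim1, the catalytic primase subunit that starts each new strand, lay at -0.79 and -0.88 in clusters and at 1.85 and 1.67 in islets. It was 6.07-fold lower (-2.60 ± 0.23 SE, limma adjusted p = 1.15e-05; probe at chr10:127466952-127467011 on mm9). Mcm10, which helps to activate the loaded helicase, lay at -2.40 and -2.53 in clusters and at -0.25 and -1.09 in islets (3.47-fold lower, limma adjusted p = 0.000832). Neither gene had overlapping groups.

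The other lower fork members act at several steps of synthesis. Gins1, a subunit of the active helicase, differed by -1.75. The ligase Lig1, which seals Okazaki fragments, differed by -1.71, and the catalytic polymerase alpha subunit Pola1 by -1.56. The clamp loader subunits Rfc4 and Rfc3 differed by -1.31 and -1.15, and the flap nuclease Fen1 by -1.03 (limma adjusted p = 0.000216 to 0.00534 over these 6). Cdc45, the helicase cofactor, lay at -3.06 and -3.53 in clusters and at -2.93 and -3.52 in islets, with overlapping groups (-0.07, 95% interval -0.72 to 0.57). Without islet replicate 1, Pola1 (-1.24, adjusted p = 0.0644), Rfc4 (-1.25, 0.0613), Rfc3 (-0.95, 0.178) and Fen1 (-0.92, 0.195) lost their calls, and Fen1 also did without islet replicate 2 (0.0978) or cluster replicate 2 (0.0528). Normexp left Mcm10 at -1.20 and Pola1 at -0.87.

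Pcna, the sliding clamp, could not be tested. Its only spot on cluster replicate 1 was flagged non-uniform by the scanner software, and the level was 4.23 on cluster replicate 2, 4.37 on islet replicate 1 and 4.20 on islet replicate 2. The usable cluster array therefore lay between the islet arrays. Gins2, another helicase subunit, had its spot flagged on cluster replicate 2 and lay at -0.89 on cluster replicate 1, with -0.42 and -0.65 on the islet arrays. With flagged spots kept, Pcna differed by -1.54 ± 1.02 SE (limma adjusted p = 0.255), a value that rests on the flagged spot, and Gins2 by -0.23 (limma adjusted p = 0.411).

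Nucleotide supply was split within 1 enzyme. Ribonucleotide reductase makes deoxynucleotides and needs a large subunit, Rrm1, and a small one, Rrm2, whose expression is tied to S phase. Rrm2 lay at -1.19 on both cluster arrays and at 1.77 and 1.43 in islets, 6.91-fold lower in clusters (-2.79 ± 0.24 SE, limma adjusted p = 9.16e-06; probe at chr12:25398824-25398883 on mm9). Rrm1 lay at 2.70 and 2.51 in clusters and at 2.04 and 1.91 in islets, 1.55-fold higher (0.63 ± 0.23 SE, limma adjusted p = 0.0433). Neither subunit had overlapping groups, and the directions were opposite.

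Thymidine kinase Tk1, of the salvage pathway, lay at -2.14 and -2.58 in clusters and at -0.36 and -1.75 in islets (2.47-fold lower, limma adjusted p = 0.0235). Its islet arrays stood 1.39 apart, wider than the gap between the nearest arrays of the 2 groups. These values are those of the brightest Tk1 probe. Dimmer Tk1 probes did not pass, at -0.32 and -0.48 (limma adjusted p = 0.334 and 0.148, over probes). Thymidylate synthase Tyms, of the de novo pathway, overlapped between groups and differed by 0.15 (95% interval -0.39 to 0.69). Tk1 lost its call in 10 of 17 alternatives, among them leaving out islet replicate 1 (-0.61, adjusted p = 0.433), cluster replicate 1 (0.131) or cluster replicate 2 (0.246) and averaging its probes (-0.70). Rrm1 lost it in 7, among them each fit with an array left out (adjusted p = 0.142 and 0.0757 for cluster replicates 1 and 2, 0.357 and 0.495 for islet replicates 1 and 2) and the replicate block (0.0639).

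The 3 E2F factors that activate replication genes were all higher in clusters. E2f1 lay at 1.85 and 1.51 in clusters and at -1.16 and -1.80 in islets. It was 8.94-fold higher (3.16 ± 0.28 SE, limma adjusted p = 1.25e-05; probe at chr2:154385798-154385857 on mm9). E2f3 lay at 2.91 and 2.69 in clusters and at 1.02 and 0.67 in islets (3.88-fold higher, limma adjusted p = 0.000124). Neither factor's groups overlapped on these probes. E2f2, the third activator, was 1.69-fold higher (0.75 ± 0.26 SE, limma adjusted p = 0.0318), at 0.13 and -0.08 against -0.49 and -0.96.

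The E2f3 result depended on the probe. A second probe crosses an exon junction (chr13:30005369-30008755 on mm9, minus strand, a span of 3387 bases for 60 bases of probe) and reads as follows, in lower case throughout because no motif is marked.
E2f3: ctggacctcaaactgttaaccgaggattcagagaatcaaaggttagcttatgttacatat
It lay at -2.59 and -2.75 in clusters and at -2.0 and -1.88 in islets, so it was lower in clusters (-0.73, limma adjusted p = 0.0287, over probes), while the brighter probe, nearer the transcript end, was higher. With both probes averaged the difference was 0.61 (limma adjusted p = 0.0465).

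The atypical repressors E2f7 and E2f8 act later in the cycle and did not pass. E2f7 overlapped between groups (-1.57 and -2.05 in clusters, -1.61 and -1.69 in islets), while a second probe was not well above background in clusters and lay at -2.18 and -3.56 in islets. With both probes averaged E2f7 was called lower (limma adjusted p = 0.00863). E2f8 lay at -4.28 and -4.40 in clusters and at -2.94 and -4.87 in islets, so the islet arrays bracketed the clusters, and it was called lower without islet replicate 2 (-1.41, limma adjusted p = 0.0335) and differed by 0.53 without islet replicate 1. E2f2 lost its call without any 1 of the arrays (adjusted p = 0.161 and 0.0939 without cluster replicates 1 and 2, 0.159 and 0.545 without islet replicates 1 and 2) and with 2 other settings.

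All 3 D-type cyclins were higher in clusters, led by Ccnd2. It lay at 6.25 and 6.04 in clusters and at 3.95 and 2.96 in islets. The difference was 6.45-fold (2.69 ± 0.33 SE, limma adjusted p = 0.000102). No other G1 gene was as far apart towards clusters. The Ccnd2 probe (chr6:127098696-127098755 on mm9, minus strand) lies at base 609 of its transcript per the files and is given as the sequence behind that value.
Ccnd2: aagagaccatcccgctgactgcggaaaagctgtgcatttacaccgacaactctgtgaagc
Ccnd3 lay at 5.53 and 5.27 in clusters and at 4.13 and 4.19 in islets, 2.37-fold higher (1.24 ± 0.23 SE, limma adjusted p = 0.00162). Ccnd1 lay at 1.88 and 1.62 in clusters and at 1.22 and 0.97 in islets, 1.58-fold higher (0.66 ± 0.24 SE, limma adjusted p = 0.0422). For each of the 3 cyclins both cluster arrays lay above both islet arrays, as in 37.2% of all genes tested.

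The kinase partners of the D cyclins did not follow them. Cdk6 was not well above background on either cluster array and lay at -3.48 and -3.62 in islets. It was at least 2.45-fold lower in clusters, as a bound from the dimmest well-detected signals (fitted -2.54 ± 0.33 SE, limma adjusted p = 0.000163), and -0.54 with normexp, below that bound. On its brightest probe Cdk4 was near equal on all 4 arrays, at 5.63 and 5.38 against 5.54 and 5.50, and differed by -0.02 (95% interval -0.54 to 0.51). Dimmer Cdk4 probes lay lower in clusters without overlap, at -0.34 and -0.49, but did not pass (limma adjusted p = 0.251 and 0.121, over probes). Cdc25a, the phosphatase that activates Cdk2, was 1.93-fold lower (2.19 and 1.96 against 3.05 and 2.98, limma adjusted p = 0.00717).

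Cyclin E1 and its kinase Cdk2 did not pass. Ccne1 lay at 1.39 and 1.13 in clusters and at 1.26 and 0.36 in islets, with overlapping groups (0.45, 95% interval -0.26 to 1.16, limma adjusted p = 0.253). A dimmer Ccne1 probe, well above background on 1 islet array alone, differed by 1.36 without overlap and did not pass either (limma adjusted p = 0.0817, over probes). With both probes averaged Ccne1 differed by 0.91 (limma adjusted p = 0.0943). Cdk2 differed by 0.77 (-0.05 to 1.58, limma adjusted p = 0.0992), with islet arrays 1.17 apart. It was 0.18 without islet replicate 1 (adjusted p = 0.841) and 1.35 without islet replicate 2 (0.0429), and was called higher in 5 of 17 alternatives. Ccne2 was not well above background on any array. Ccnd1 lost its call without any 1 array (adjusted p = 0.166, 0.0740, 0.283 and 0.530 without cluster replicates 1 and 2 and islet replicates 1 and 2) and with the replicate block (0.0571), Ccnd3 without islet replicate 1 or 2 (0.0717 and 0.0594), and Cdc25a without cluster replicate 2, islet replicate 1 or islet replicate 2 (0.0532, 0.202 and 0.175).

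Genes of mitotic entry were lower or did not pass. Of the 6 tested of 7, 2 were lower (33.3%, near the 28.2% of all genes) and 4 did not pass, with a median of -0.72. Ccnb1, the cyclin that with Cdk1 starts mitosis, lay at -4.61 and -4.72 in clusters, where 1 of the 2 arrays was well above background, and at -1.33 and -3.01 in islets. It was 5.65-fold lower (-2.50 ± 0.45 SE, limma adjusted p = 0.00132). The islet arrays differed by 1.67 for this gene, but both lay above both cluster arrays. Plk1, the polo kinase of mitotic entry, was 1.75-fold lower (-2.37 and -2.49 against -1.19 and -2.05, limma adjusted p = 0.0479).

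Cdk1, the mitotic kinase itself, showed no such separation. It lay at -2.67 and -3.03 in clusters and at -2.12 and -3.70 in islets, so the islet arrays lay on either side of both cluster arrays (0.06, 95% interval -0.94 to 1.06, limma adjusted p = 0.921). Ccna2, cyclin A2 of S phase and G2, lay at -3.11 and -3.28 against -1.60 and -3.04 and did not pass (-0.88, -1.80 to 0.05, limma adjusted p = 0.0972). It was -0.16 without islet replicate 1 (adjusted p = 0.864) and -1.59 without islet replicate 2 (0.0133), and was called lower in 5 of 17 alternatives. Cdk1 was 0.85 and -0.73 in those fits and was called in neither. Ccnb2 (-0.64, limma adjusted p = 0.0864) and the centrosomal kinase Aurka (-0.15, limma adjusted p = 0.691) did not pass either, and Cdc25c was not well above background on any array. The call of Ccnb1 was lost when either cluster array was left out (adjusted p = 0.0615 and 0.0682), and its difference was -1.66 and -3.33 without islet replicates 1 and 2 and -0.94 with normexp. Plk1 lost it in 13 of 17 alternatives, among them the replicate block (0.0827) and each array left out (0.183 and 0.239 without cluster replicates 1 and 2, 0.649 and 0.0691 without islet replicates 1 and 2).

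Of the spindle checkpoint and anaphase-promoting complex, 3 of 5 genes were tested. Bub1b, the BubR1 checkpoint protein, was not well above background in clusters and lay at -3.38 and -3.76 in islets. It was at least 2.42-fold lower in clusters, as a bound of the same kind (fitted -1.65 ± 0.24 SE, limma adjusted p = 0.000354), and -0.62 with normexp, below that bound. Mad2l1, which restrains Cdc20, was 2.23-fold lower (-1.47 and -1.64 against -0.19 and -0.60, limma adjusted p = 0.0034) and lost its call without islet replicate 1 (-0.95, adjusted p = 0.176). The 2.23-fold difference is that of the brightest Mad2l1 probe. Dimmer Mad2l1 probes did not pass, at -0.61 and -0.24 (limma adjusted p = 0.285 and 0.505, over probes), and their groups overlapped. With its probes averaged Mad2l1 differed by -0.67 and was still called lower (limma adjusted p = 0.0381). Cdc20, the activator of the complex, lay at -0.10 and -0.25 against 0.93 and 0.06 and did not pass (-0.67, 95% interval -1.36 to 0.02). Bub1 and Ttk, both checkpoint kinases, were not well above background on any array.

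Of 9 genes of chromosomes and spindle, 6 were tested, 4 were lower and 2 did not pass, with a median of -1.77. Mki67, the Ki-67 protein used to mark dividing cells, lay at -3.61 and -2.77 in clusters and at -0.16 and -2.09 in islets. It was 4.19-fold lower (-2.07 ± 0.54 SE, limma adjusted p = 0.0102; probe at chr7:142881591-142881650 on mm9). The islet arrays stood 1.94 apart, and both lay above both cluster arrays. A second Mki67 probe lay at -5.58 and -5.75 in clusters, not well above background, and at -0.29 and -2.07 in islets (limma adjusted p = 0.000166, over probes).

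Top2a, topoisomerase II alpha, followed the same course. It lay at -4.36 and -5.31 in clusters and at -1.63 and -3.68 in islets, with 1 of the 2 cluster arrays well above background, so the fitted difference rests partly on a dim value (4.53-fold lower, -2.18 ± 0.58 SE, limma adjusted p = 0.0103). Cenpe, a kinetochore motor, lay at -2.75 and -3.13 against -0.25 and -1.25 (4.57-fold lower, limma adjusted p = 0.000475), and Birc5, survivin of the chromosomal passenger complex, at -1.59 and -1.64 against 0.41 and -0.69 (2.79-fold lower, limma adjusted p = 0.00531). In all 4 genes both islet arrays lay above both cluster arrays, as in 42.7% of all genes tested, and islet replicate 1 was the highest of the 4 arrays. Cenpa, the centromeric histone (-0.35, limma adjusted p = 0.218), and the cytokinesis motor Kif20a (0.27, limma adjusted p = 0.549) did not pass.

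Top2a and Mki67 had the largest standard errors of the lower members, 0.58 and 0.54. Mki67 lost its call in 10 of 17 alternatives and Top2a in 9 of the 16 that tested it, and both kept it without islet replicate 2 (-3.04 and -3.20). Without islet replicate 1 Mki67 differed by -1.10 (adjusted p = 0.110), Top2a by -1.15 (0.0891) and Birc5 by -0.93 (0.191). Without cluster replicates 1 and 2 the adjusted p was 0.197 and 0.0890 for Mki67, 0.0856 and 0.207 for Top2a, and 0.0893 and 0.0968 for Birc5. With the replicate block Mki67 lost its call (0.0984), and normexp gave -1.27 for Mki67, -0.86 for Top2a and -1.25 for Cenpe. The remaining members of this role, Aurkb and Kif11, were not well above background on any array, and Nusap1 was so on 1 islet array alone.

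The 2 islet arrays differed in nearly every member in the same direction. Islet replicate 1 was above islet replicate 2 in 48 of the 50 members (96.0%), against 47.8% of all genes tested, and the exceptions were Cdk2 and Ccnd3. The median difference between the islet arrays was 0.49 for the members and -0.02 for all genes. It was 1.00 for mitotic members and 0.35 for S phase members. On the cluster arrays the median of replicate 1 minus replicate 2 was 0.21 for the members and 0.22 for all genes. Islet replicate 1 was the highest of the 4 arrays for 36 members and cluster replicate 1 for 14, while cluster replicate 2 was the lowest for 29. These 3 counts were not made over all genes. Cluster replicate 1 lay above cluster replicate 2 in 45 of the 50 members and in 21227 of all 24595 genes, so that order is not particular to the members.

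**Figure D4:**
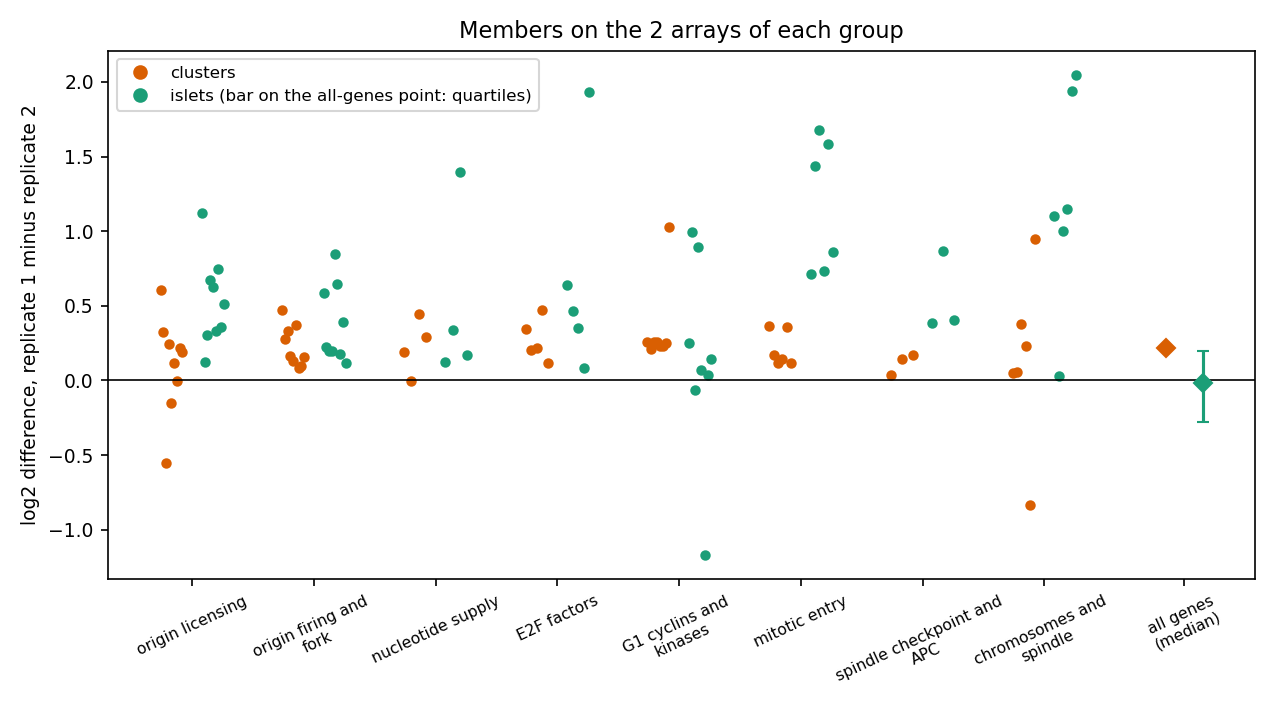
Difference between the 2 arrays of a group (y axis, log2, replicate 1 minus replicate 2) for each member tested, by role (x axis), in clusters (orange) and islets (green). Diamonds on the right give the medians over all genes, 0.22 for clusters and -0.02 for islets, and the bar the quartiles of the islets. The islet points of all 15 mitotic members lie above 0.

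Without islet replicate 1, 3 members were higher and 13 lower, beside 16.7% and 16.9% of all genes in that fit. Without islet replicate 2, 4 were higher and 24 lower, beside 15.9% and 15.2% of all genes. The medians of the members were then -0.37 and -1.19. Both fits gave every gene the same variance, so a call in them reflects the size of the difference and not the gene's own spread. The members called without islet replicate 1 were E2f1, E2f3 and Ccnd2, higher, and Mcm3, Mcm5, Mcm6, Gmnn, Prim1, Mcm10, Gins1, Lig1, Rrm2, Cdk6, Ccnb1, Bub1b and Cenpe, lower. All 16 had been called in the same direction with all arrays.

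Markers of other cells also differed between the islet arrays. Islet replicate 1 was higher in 15 of 16 endocrine markers tested (median 1.29), and islet replicate 2 in 12 of 14 acinar markers (median of replicate 1 minus 2, -0.52), 6 of 7 macrophage markers (-0.44), 4 of 4 lymphocyte markers (-0.39) and 3 of 4 erythroid markers (-2.78). Their part in the members' differences was not tested.

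Beside the 59 members, 108 other genes of the same machinery were followed, of which 91 were tested. In clusters 32 of them were lower and 18 higher, and 41 missed the threshold, with a median of -0.42. The 34 other replication genes tested gave 11 lower and 7 higher, the 47 other mitosis genes 20 lower and 7 higher, and the 10 other E2F and DREAM genes 1 lower and 4 higher. These shares of lower genes, 32.4%, 42.6% and 10.0%, stand beside 28.2% of all genes. The share of the other replication genes lay near that of all genes and below the 68.2% of the S phase members tested.

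Among the other replication genes, Uhrf1, which carries DNA methylation through replication, was 12.9-fold lower (-3.55 and -1.78 against 1.57 and 0.49, limma adjusted p = 0.000323). The cohesion factor Dscc1 was at least 2.64-fold lower, being not well above background in clusters (limma adjusted p = 5.8e-05). Higher were Dut, the dUTPase that keeps uracil out of DNA (3.23-fold, limma adjusted p = 0.000785), and the maintenance methyltransferase Dnmt1 (2.00-fold, limma adjusted p = 0.00666). Uhrf1 and Dnmt1, partners in copying methylation, thus stood on opposite sides.

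Among the other mitosis genes, the kinase Melk was at least 10.7-fold lower (limma adjusted p = 2.18e-05) and the microtubule regulator Stmn1 11.4-fold lower (0.47 and 0.26 against 4.08 and 3.66, limma adjusted p = 2.58e-06). The spindle protein Ckap2 was 12.5-fold higher (0.46 and 0.31 against -2.91 and -3.61, limma adjusted p = 4.29e-06) and the abscission protein Cep55 2.83-fold higher (limma adjusted p = 0.00049). Of the E2F and DREAM genes, the repressor E2f6 was 2.88-fold higher (limma adjusted p = 0.000465) and the DREAM subunit Lin54 2.05-fold higher (limma adjusted p = 0.00416), while Lin9, also of DREAM, was 1.64-fold lower (limma adjusted p = 0.0350).

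Markers of several cell types differed between the groups more than the members did. All 14 acinar markers were lower in clusters, where 8, among them Cpa1 and Ptf1a, were not well above background; their summed level, on the same log2 scale, was 0.63 to 0.80 in clusters and 12.29 to 12.96 in islets. All 14 mesenchymal stromal markers were higher (10.91 to 11.16 against 5.71 to 5.88), and all 8 endothelial markers were lower (1.55 to 1.84 against 4.13 to 4.14), with Cdh5 and 5 others not well above background in clusters. Of 16 endocrine markers 11 were lower and 3 higher (4.04 to 4.31 against 5.17 to 7.55). Ins1 was 122-fold and Ins2 42.6-fold lower in clusters (limma adjusted p = 1.85e-05 and 0.000128), still well above background on all 4 arrays. Gcg, Iapp, Ppy, Pdx1 and Slc2a2 were not well above background in clusters. The higher markers were Isl1 (126-fold), Neurod1 (3.20-fold) and Pcsk1 (1.79-fold), at limma adjusted p = 8.24e-08, 0.0229 and 0.0469. Mafa and Nkx6-1 did not pass. Of 8 duct markers 7 were lower, with Krt19 differing by -11.96, and Spp1 was higher (2.98). Spp1 alone stood at 9.08 to 9.31 in clusters, so the summed duct level (9.09 to 9.31 against 7.53 to 7.94) is nearly all Spp1 there. Of 7 macrophage markers 4 were lower (5.51 to 5.74 against 7.33 to 7.56), of 4 lymphocyte markers 1 (2.04 to 2.47 against 2.42 to 2.80), and of 4 erythroid markers 3, with 1 higher (-1.22 to -0.89 against 0.10 to 2.48). How far these cells carry the members' differences was not tested, and with cell make-up and culture both differing between the groups, these cannot be told apart.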

How the data were processed

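RNA of 2 islet-like cluster samples and 2 islet samples was hybridised to 1-colour Agilent mouse arrays (500 ng of total RNA, oligo-dT primed, Cy3, per the labels). Each deposited scanner file gives linear intensity per spot. Agilent Feature Extraction 11.5.1.1, named by the file headers, subtracted background and then corrected the processed signal by a multiplicative trend surface, except on cluster replicate 1, where its statistics block lists no such surface. Its flags (well above background, non-uniform, saturated) were used as deposited. The authors' deposited value table holds log2 values and served as an alternative; its columns followed the scanner values at r of 0.99996 or more, with medians of -3.61, -3.70, -3.50 and -3.37. Probe positions are on mm9 per the file headers, and exons or UTRs were not looked up, since no annotation of that build was used here.

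Spots flagged non-uniform were removed and a probe's spots averaged. Processed signals were divided by the array's 75th percentile over non-control probes and log2-transformed. A probe stayed if it was well above background throughout either group, and the brightest one stood for its gene. The groups were compared by linear models with moderated variance (lmFit and eBayes of limma 3.58.1, R 4.3.3), 2-sided, with Benjamini-Hochberg adjustment over all genes tested and a threshold of 0.05. With 2 arrays per group the fit had 2 residual degrees of freedom and 9.06 with its prior; the number of arrays limits the precision. The code was tested on simulated data.

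Members and gene lists were chosen with earlier results of these data known. Array values are given for up to 2 called members per role in each direction with the largest differences and for 12 members always (Mki67, Top2a, Pcna, Mcm2, E2f1, Ccnd1, Ccnd2, Ccne1, Ccna2, Ccnb1, Cdk1, Birc5). Values of further members, which members have printed sequences around a promoter word, and the 2 printed probes were chosen after their values were seen. The alternatives were normexp, other scalings, filters, a floor, probe averaging, keeping non-uniform spots, other moderation, the authors' values, a replicate block and each array left out.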

Additional observations from a re-analysis of the deposited data

How the results depend on the processing

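Over 17 alternatives and the 50 members, 710 of 844 comparisons kept direction and side of the threshold, 86 calls were lost, 24 gained and 24 values changed sign, and every change of sign was in a member that had not passed. Of the 33 called members, 15 kept their call in every alternative that tested them (E2f1, E2f3, Ccnd2, Mcm3, Mcm5, Mcm6, Mcm10, Gmnn, Prim1, Gins1, Lig1, Rrm2, Cdk6, Cenpe and Bub1b) and 18 lost it in at least 1. With no filter on dim probes, 5 members and 11 other pathway genes were higher. With 1 array left out, 3 to 5 members were higher and 13 to 24 lower, the members' median ran from -1.19 to -0.37, 5 to 10 other pathway genes were higher and 20 to 26 lower, and over all genes 3909 to 5404 were higher and 3740 to 5441 lower. The lowest count of lower members (13) came without islet replicate 1, and 16 remained without cluster replicate 2. Among called members the share that was lower ran from 70.4% to 85.7% over all settings; over all genes the split was 32.3% higher and 23.3% lower with median scaling and 24.7% and 36.5% with scaling over detected probes. Scaling over spots in place of probes was chosen after seeing the data and gave 8 higher and 24 lower members.

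Changes of sign were Aurka 0.05, Cdc45 0.12, Cdk4 0.18 and E2f7 0.04 with median scaling; Cdc45 0.11, Cdk4 0.02 and E2f7 0.01 with quantile normalization; Cdk1 -0.13 and Tyms -0.04 with scaling over detected probes; and Cdk1 -0.21 and Cdk4 0.03 with normexp. With 1 array left out they were found in Aurka (-0.50 to 0.21 over the 4 fits), Cdc45 (-0.36 to 0.22), Cdc6 (-0.29 to 0.83), Cdk1 (-0.73 to 0.85), Cdk4 (-0.14 to 0.11), E2f7 (-0.40 to 0.08), E2f8 (-1.41 to 0.53) and Kif20a (-0.31 to 0.84). The cause was not tested, except that scalings move all genes together.

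With the replicate number as a block, 6 members were higher and 23 lower, and 5729 and 5577 of all genes. The labels do not say whether equal numbers pair the samples. Deviations of same-numbered arrays correlated at -0.02 over genes, but 2 pairs are too few to settle whether they share more than the number. Depth here is signal over background: 2 called members have only a bound in clusters, 7 members were too dim to test, and normexp gave smaller differences for both bounded members (Cdk6 -0.54, Bub1b -0.62). In a fit with 1 array in a group, that array is assumed to vary like the other group. All genes received the same variance when either islet array was left out, so calls kept, lost or gained there follow the size of the difference alone. The same held with normexp and with only probes well above background on all arrays. Ccna2 and Cdk2 gained calls in both of these settings, and Mki67 and Top2a kept theirs with normexp. Exact permutation of 2 arrays against 2 cannot give a p below 0.333.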
